A study of Homo sapiens with 2 samples.

Results

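Hairpins whose microRNAs (miRNAs) are tied to lipid metabolism were followed in small-RNA sequencing of 2 breast cancer cell lines. There were 5: hsa-mir-33a, hsa-mir-33b, hsa-mir-378a, hsa-mir-128-1 and hsa-mir-128-2. Members were taken by precursor name, both arms, which gave 10 of the 2121 rows of the deposited table and 9 mature names among the 1623 annotated ones, since hsa-miR-128-3p is cut from 2 of the hairpins. Each line gave 1 library: MDA-MB-468, labelled as lacking the oestrogen receptor, the progesterone receptor and HER2 and grown in DMEM, and BT474, labelled as oestrogen receptor-positive and grown in RPMI medium. Both were stem-enriched fractions sorted by flow cytometry on CD24 and CD44, the gate not being given, and both media carried fetal bovine serum. Line and medium therefore change together and cannot be told apart, nor can any difference in the gate. No difference below has a replicate check. Fewer cells carrying a miRNA and less of it per cell cannot be told apart either. Errors are intervals at the 95% level for counting error only, because reads amplified by PCR without molecular identifiers are not independent molecules.

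Each of these hairpins sits in an intron of a protein-coding gene and can be made from its transcript. The genes SREBF2 and SREBF1, which encode the sterol-regulatory transcription factors that switch on cholesterol and fatty acid synthesis, carry mir-33a and mir-33b, and miR-33 represses ABCA1, the transporter that exports cholesterol. PPARGC1B, which encodes a coactivator of mitochondrial genes and fatty acid oxidation, carries mir-378a, and in mice loss of this hairpin alters energy expenditure. R3HDM1 and ARPP21 carry mir-128-1 and mir-128-2, whose shared 3p arm is best known from the brain and has been described as a repressor of ABCA1. Small-RNA libraries do not measure the messenger RNAs of these hosts or targets.

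The mature sequences are shown first because they decide which of these miRNAs can be told apart by reads and which share a seed. Capitals mark the seed, bases 2 to 8 from the 5′ end, and all sequences are from RefSeq (GRCh38.p14).

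miR-33a-5p: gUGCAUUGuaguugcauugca
miR-33b-5p: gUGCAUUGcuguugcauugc
miR-33a-3p: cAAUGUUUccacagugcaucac
miR-33b-3p: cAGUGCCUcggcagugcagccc
miR-378a-3p: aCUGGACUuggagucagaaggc
miR-378a-5p: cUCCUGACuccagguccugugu
miR-128-3p: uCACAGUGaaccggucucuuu
miR-128-1-5p: cGGGGCCGuagcacugucugaga
miR-128-2-5p: gGGGGCCGauacacuguacgaga

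The 5p arms of miR-33a and miR-33b share their seed and differ in their first 20 bases by U9C and A10U, counted from the 5′ end with the miR-33a base first. Their 3p arms have different seeds. The 5p arms of both mir-128 hairpins share a seed of their own, and miR-128-3p is the same molecule from either hairpin.

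In GENCODE 29 (GRCh38) every hairpin lay within an intron of its host on the host's strand, and no annotated host transcript had an exon over it. MIR33A was at chr22:41900944-41901012 in intron 16 of 18 of SREBF2, and MIR33B at chr17:17813836-17813931 on the minus strand, in intron 16 of 18 of SREBF1. The paralogs thus hold the same place in their paralogous hosts, but the intron was 2471 bases long in SREBF2 and 475 in SREBF1. MIR378A was at chr5:149732825-149732890 in intron 1 of PPARGC1B, 2.53 kb from the start of the gene. MIR128-1 was at chr2:135665397-135665478 in intron 18 of 25 of R3HDM1, and MIR128-2 at chr3:35744476-35744559 in intron 18 of 19 of ARPP21. The file headers give no genome build, so these positions belong to the miRNA names and not to the deposited rows.

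Annotated miRNAs summed to 11448022 counts for MDA-MB-468 but 5133057 for BT474, and levels are given as CPM, the count scaled to a common total. A blank cell is a value that was not listed, the smallest listed count being 2 in both libraries, and in ratios it was set at 3 counts. One miRNA that is no member, miR-21-5p, took 25.1% of MDA-MB-468 counts and 54.2% of BT474 counts, which leaves a smaller part of the BT474 total to all others. The sorted cells carried miRNAs of epithelial cells. A list of the miR-200 family, miR-205 and miR-203a summed to 90167 CPM in MDA-MB-468 against 62503 CPM in BT474. Of its 12 arms with at least 10 counts, 4 were at least 2-fold higher in MDA-MB-468, 2 lower and 6 neither. Over all 690 miRNAs with at least 10 counts, 35.4% were higher and 28.6% lower. Of the higher arms, miR-205-3p (82 counts, not listed in BT474) reached 10 counts only in MDA-MB-468. BT474 had little miR-205-5p (61.6 CPM, MDA-MB-468 having 14367) but more miR-200c-3p (26622 CPM, MDA-MB-468 having 10434). Lists of stromal miRNAs (376 and 181 CPM), blood-cell miRNAs (27.9 and 48.1 CPM), muscle miRNAs (27.95 and 9.16 CPM) and neuron miRNAs (237 and 412 CPM, mostly miR-9-5p) were far lower. The part of such cells in the results was not tested.

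The members spanned from 103744 counts to none. Together they made up 1.07% of MDA-MB-468 counts (Clopper-Pearson interval 1.07 to 1.08) and 0.434% of BT474 counts (0.428 to 0.440). miR-378a-3p supplied 84.4% of member counts in MDA-MB-468 against 58.8% in BT474, and miR-128-3p supplied 15.0% and 40.7%. The arms of miR-33 were thus a trace of the signal in either line. Of the 9 names, 7 reached 10 counts in at least 1 library, miR-33b-5p was listed below that, and miR-128-2-5p was listed in neither library.

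**Figure D1:**
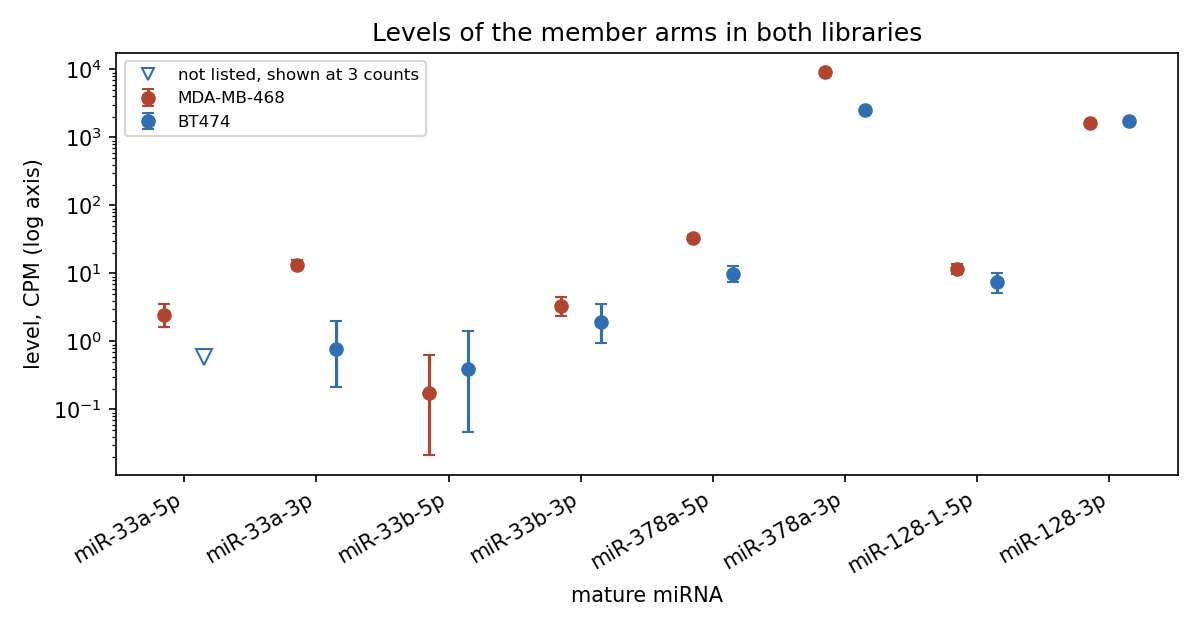
Level of each member arm listed in at least 1 library, in CPM on a log axis, in MDA-MB-468 (red) and BT474 (blue), 1 library each; bars are exact 95% Poisson intervals and the open triangle is a value not listed, drawn at 3 counts. miR-378a-3p stood at 9062 and 2552 CPM and miR-128-3p at 1609 and 1768 CPM, while all 4 miR-33 arms lay below 14 CPM.

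At least 2-fold higher in MDA-MB-468 were 4 of the 7 arms with at least 10 counts in a library: both arms of mir-33a and both of mir-378a, and none was 2-fold lower. Over all 690 miRNAs with at least 10 counts, 35.4% were at least 2-fold higher in MDA-MB-468 and 28.6% at least 2-fold lower, so a 2-fold difference was common in these libraries. The median log2 ratio (MDA-MB-468 over BT474) was 1.76 over the 7 member arms and 0.30 over all 690. Arms of 1 hairpin come from 1 precursor and are not independent of each other. The minimum of 10 counts also selects: both arms of mir-33a passed only through the MDA-MB-468 library, where they were high.

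**Figure D2:**
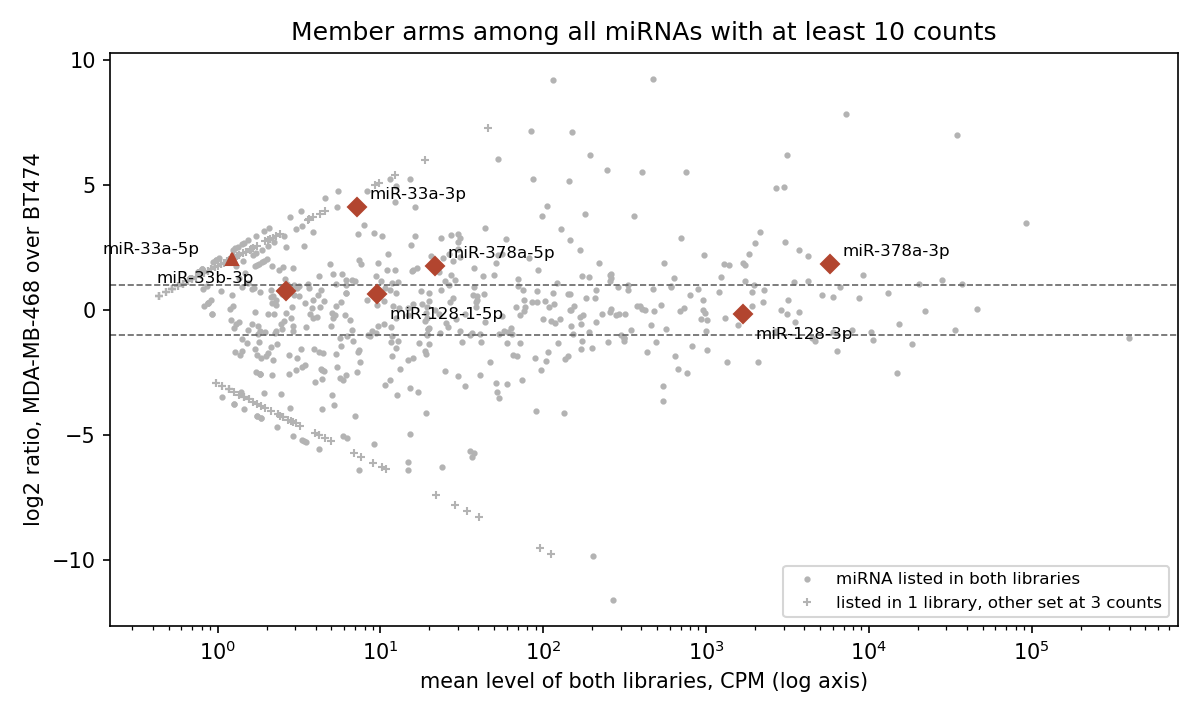
Log2 ratio of MDA-MB-468 over BT474 against the mean level in CPM (log axis) for 690 miRNAs with at least 10 counts in a library (grey), with the 7 member arms in red and dashed lines at 2-fold. Crosses and the red triangle are miRNAs listed in 1 library, the other being set at 3 counts. The arms of mir-33a and mir-378a lie above the upper line, and miR-33b-3p, miR-128-1-5p and miR-128-3p lie between the lines.

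miR-33a-5p, the arm known for repressing ABCA1 and genes of fatty acid oxidation, had 28 counts in MDA-MB-468 (2.45 CPM, exact Poisson interval 1.63 to 3.53) and was not listed in BT474. With that blank set at 3 counts over the library (0.584 CPM) it was at least 4.18-fold higher in MDA-MB-468 at this scaling, counting error of the 28 counts aside. The log2 ratio was 1.86 under 2 other scalings, 2.22 with median-of-ratios size factors and 2.13 with TMM scaling. It was 3.65 with the blank set at 1 count. With the authors' normalized values, where the arm was listed at 2 and the blank was set at 1, it was 1.00. The other arm, miR-33a-3p, which has been described as acting on some of the same lipid genes, had 155 counts in MDA-MB-468 (13.5 CPM, 11.5 to 15.8) against 4 in BT474 (0.779 CPM, 0.212 to 2.00). It was 17.4-fold higher in the MDA-MB-468 library (log2 4.12, exact binomial interval 2.73 to 6.01), and 32 of the 690 miRNAs, itself included, had a ratio as high. In the authors' normalized values, 11 and 1, the log2 ratio was 3.46. The wide interval reflects the 4 counts in BT474. Both arms of mir-33a were thus found mainly in the MDA-MB-468 library.

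miR-33b, encoded in the gene of the sterol-regulatory factor that favours fatty acid synthesis, is found in humans but not in mice. miR-33b-5p had 2 counts in each library (0.175 CPM in MDA-MB-468 against 0.390 CPM in BT474), under the minimum of 10 counts, so no ratio is given. miR-33b-3p had 38 counts in MDA-MB-468 (3.32 CPM, 2.35 to 4.56) compared with 10 in BT474 (1.95 CPM, 0.934 to 3.58). Its log2 ratio of 0.77 had an interval of -0.26 to 1.94, which includes both no difference and more than 2-fold. In the authors' deposited normalized values it was 1 in both libraries, a log2 ratio of 0. A difference in miR-33b was not detectable at this depth.

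The balance between the miR-33 paralogs can be read within a library, free of scaling. Of the counts of both miR-33 3p arms, miR-33a-3p took 80.3% in MDA-MB-468 (155 counts beside 38 of miR-33b-3p, Clopper-Pearson interval 74.0 to 85.7) compared with 28.6% in BT474 (4 of 14, 8.39 to 58.1). The share was lower in BT474, with intervals that did not overlap. On only 14 counts, the BT474 interval does not show which paralog held the larger part there. In the authors' normalized values the shares were 91.7% and 50%. Of the 5p counts, miR-33a-5p took 93.3% in MDA-MB-468 (28 of 30, 77.9 to 99.2), and in BT474 the 2 listed 5p counts were both miR-33b-5p.

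The arms of mir-33a were also unevenly used, with the 3p arm ahead of the arm usually named as the guide. The 5p arm made up 15.3% of mir-33a counts in MDA-MB-468 (28 of 183, 10.4 to 21.3) and none of 4 in BT474, which allows up to 60.2%. For mir-33b the 5p share was 5.00% in MDA-MB-468 (2 of 40, 0.611 to 16.9) against 16.7% in BT474 (2 of 12, 2.09 to 48.4). Among 308 hairpins with at least 20 counts over both arms in MDA-MB-468, 81.2% were at least as one-sided as mir-33a, so its minor arm was relatively well represented.

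miR-378a-3p, which in mice acts on mitochondrial carnitine metabolism, was the most abundant member in both lines. It had 103744 counts in MDA-MB-468 (9062 CPM, 9007 to 9117) against 13099 in BT474 (2552 CPM, 2508 to 2596). This placed it 16th by count in MDA-MB-468 against 33rd in BT474. The MDA-MB-468 level was 3.55-fold higher (log2 1.83, 1.80 to 1.85), although 146 of the 690 miRNAs had a ratio at least as high. The other arm, miR-378a-5p, had 384 counts (33.5 CPM, 30.3 to 37.1) and 51 counts (9.94 CPM, 7.40 to 13.1), a log2 ratio of 1.76 (1.33 to 2.21). Both arms therefore differed to the same degree within counting error. The 5p share of the hairpin was 0.369% in MDA-MB-468 (0.333 to 0.407) against 0.388% in BT474 (0.289 to 0.510), with overlapping intervals, and the hairpin was almost wholly 3p in each line.

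The miR-378 family holds further names whose sequences nearly repeat miR-378a-3p, and reads of 1 can be counted under another, so the following values are uncertain as separate miRNAs. Relatives are shown to mark how little separates them, with the seed in capitals.

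miR-378a-3p: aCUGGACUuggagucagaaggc
miR-378i: aCUGGACUaggagucagaagg
miR-378c: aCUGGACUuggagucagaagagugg
miR-378f: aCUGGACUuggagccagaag
miR-422a: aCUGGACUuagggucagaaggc
miR-378g: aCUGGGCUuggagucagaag

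Against miR-378a-3p, counted from the 5′ end, miR-378i carries the single difference U9A and miR-378f the single difference U14C. miR-378c is identical over its first 20 bases, and miR-422a differs by G10A and A12G. miR-378g differs by A6G, which lies within the seed, so it has a seed of its own. miR-378i had 18288 counts in MDA-MB-468 (1597 CPM) compared with 1750 in BT474 (341 CPM), a log2 ratio of 2.23 (2.16 to 2.30). miR-378c had 4331 and 1028 counts (378.3 and 200.3 CPM), a log2 ratio of 0.92 (0.82 to 1.02). The intervals of miR-378i and miR-378c did not overlap. Among the relatives listed in both libraries they had the highest and the lowest ratio, although the interval of miR-422a spans that of miR-378i and those of miR-378e and miR-378g span that of miR-378c.

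Of 9 other family names in the table, 8 reached 10 counts, 6 of these were at least 2-fold higher in MDA-MB-468 and none 2-fold lower, beside the 35.4% of all miRNAs compared. The count was 7 of 8 with median-of-ratios size factors (37.8% of all miRNAs) and 7 of 7 with the authors' normalized values (32.0%). It was 4 of 8, beside 31.0% of all miRNAs, with the total taken without the 10 most abundant miRNAs or with upper-quartile scaling. There miR-378e (main log2 1.08) and miR-378g (main log2 1.11) dropped below 2-fold. miR-378d (log2 1.24, 1.03 to 1.46), miR-378f (1.52, 1.13 to 1.94) and miR-422a (1.84, 1.11 to 2.66) stayed above it under all 9 alternatives that gave them a ratio. miR-378h had 11 counts in MDA-MB-468 and was not listed in BT474. Summed, the 9 names came to 23.8% of the miR-378a-3p count in MDA-MB-468 compared with 24.0% in BT474. The relatives as a sum thus kept the same proportion to their main member, whereas miR-378i went from 13.4% of miR-378a-3p in BT474 to 17.6% in MDA-MB-468 and miR-378c from 7.85% to 4.17%.

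**Figure D3:**
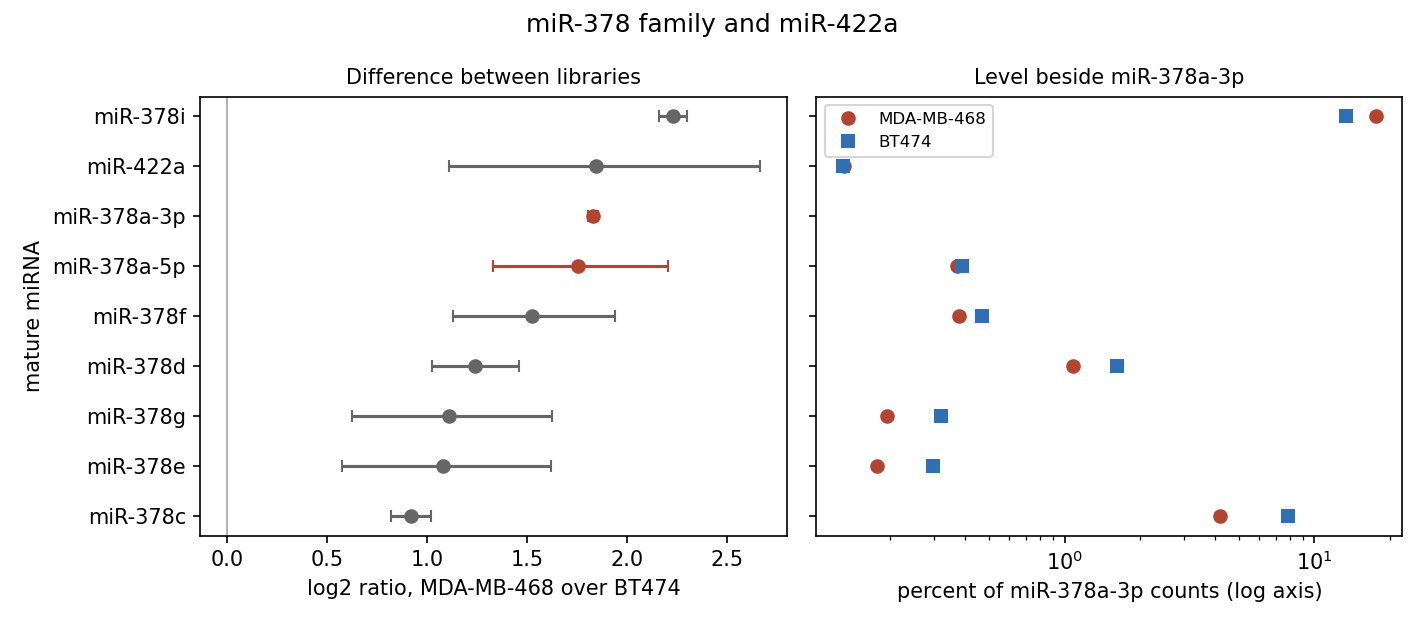
Left, log2 ratio of MDA-MB-468 over BT474 for the arms of mir-378a (red) and the relatives listed in both libraries (grey), with exact 95% counting intervals. Right, counts of each as a percent of miR-378a-3p counts in the same library (log axis). All ratios are above 0, from 0.92 for miR-378c to 2.23 for miR-378i.

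miR-128-3p, which either mir-128 hairpin can supply, was close to level between the lines. It had 18423 counts in MDA-MB-468 (1609 CPM, 1586 to 1633) against 9074 in BT474 (1768 CPM, 1732 to 1805), and ranked 56th and 39th. It was 1.10-fold higher in BT474 (log2 -0.14, -0.17 to -0.10), a difference outside counting error but of about the size of the shifts that other scalings make. The log2 ratio stayed below 0 under 8 of 9 alternatives and was 0.022 with median-of-ratios size factors. The 5p arm of mir-128-1 stood at 11.6 CPM (9.73 to 13.8) in MDA-MB-468 and, from 38 counts, at 7.40 CPM (5.24 to 10.2) in BT474, a log2 ratio of 0.65 (0.12 to 1.21). The 5p arm of mir-128-2 was listed in neither library, although counts down to 2 were listed. The 3 counts set for a blank equal 0.262 CPM in MDA-MB-468 against 0.584 CPM in BT474. In both lines the 5p signal of miR-128 was therefore listed under the R3HDM1 hairpin alone.

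The table lists miR-128-3p once under each hairpin, and here the rows were unequal. Under mir-128-1 it had 18423 counts in MDA-MB-468 against 9074 in BT474, and under mir-128-2 it had 11684 and 7526. The mir-128-2 row was thus 63.4% of the mir-128-1 row in MDA-MB-468 (62.7 to 64.1) against 82.9% in BT474 (82.2 to 83.7), the intervals holding if the smaller set of tags lies within the larger. Among 23 names listed on several precursors with at least 100 counts in every row, the median of this percentage was 97.8% in MDA-MB-468 compared with 98.9% in BT474. miR-128-3p had the 4th lowest value in each library and the 2nd largest gap between the libraries. The percentage was lower in MDA-MB-468 for 17 of the 23 names, so the direction of the gap was shared by most of them.

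The genomic sequence around miR-128-3p shows where its hairpins part, which is what a longer tag would have to read. Capitals mark the mature miRNA, with the 2 shared bases before it and the 6 bases after it.

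mir-128-1: ucUCACAGUGAACCGGUCUCUUUuucagc
mir-128-2: ucUCACAGUGAACCGGUCUCUUUcccuac

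The hairpins are identical over 23 bases, the mature 21 and 2 before it, and differ from the first base after its 3′ end, U on mir-128-1 and C on mir-128-2. A tag that ends within the shared stretch matches both, and which tags made up the difference between the rows is not given in the file. The split between the 2 hairpins can therefore not be read from the mature counts. Counted against the row of its own hairpin, the 5p share of mir-128-1 was 0.717% in MDA-MB-468 (of 18556 counts, 0.600 to 0.849) against 0.417% in BT474 (of 9112 counts, 0.295 to 0.572), with intervals that did not overlap. Both shares rest on the authors' assignment of shared 3p tags, and its part in the gap was not tested.

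**Figure D4:**
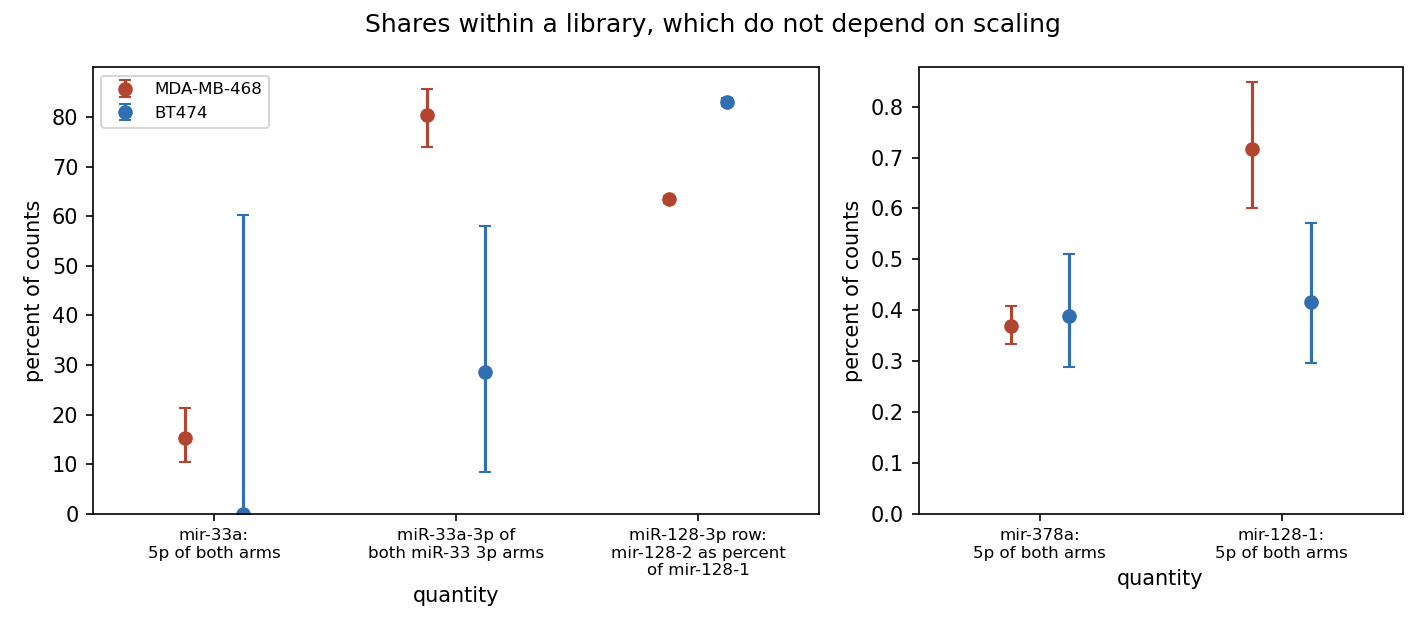
Shares of counts within a library for MDA-MB-468 (red) and BT474 (blue) with exact 95% Clopper-Pearson intervals; the right panel has its own axis. The intervals are apart for miR-33a-3p among miR-33 3p arms, for the 2 rows of miR-128-3p and for the 5p share of mir-128-1, and overlap for the arms of mir-33a and mir-378a.

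Other miRNAs with a member's seed were looked up next. Besides the miR-378 names, the seed of miR-128-3p was shared by miR-216a-3p, with 5 counts in MDA-MB-468 and none listed in BT474, and by miR-3681-3p, listed in neither. The seed family of miR-128-3p was thus represented by miR-128-3p itself. Bases 1 to 7 of miR-128-3p are the seed of miR-27a-3p and miR-27b-3p, which are also described as repressors of ABCA1. miR-27a-3p stood at 3650 CPM in MDA-MB-468 compared with 3820 CPM in BT474 (log2 -0.066, -0.090 to -0.041, and above 0 under 2 of 9 alternatives). miR-27b-3p stood at 27443 and 13143 CPM (log2 1.06, 1.05 to 1.07, and below 2-fold under 2 of 9 alternatives). The miRNAs with this offset seed were therefore more abundant than miR-128-3p in both lines.

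Hairpins within 1 Mb of a member were compared to see whether neighbours differed alike. MIR6777, 291 bases from MIR33B on the same strand, gave miR-6777-3p with 48 counts in MDA-MB-468 against 11 in BT474 (log2 0.97, 0.0029 to 2.06). Under the alternatives it was between 0.76 and 2.00, below 2-fold under 5 of 9, while miR-33b-3p was between 0 and 0.93. The main interval of miR-33b-3p, -0.26 to 1.94, overlaps that of miR-6777-3p, so no difference between these neighbours can be read. MIR378I lies 22.2 kb from MIR33A on the opposite strand, so a relative of miR-378a is a genomic neighbour of mir-33a. MIR145 and MIR143 lie 302.1 and 303.8 kb from MIR378A on the same strand, and miR-143-3p (354 and 158 CPM) and miR-145-5p (14.0 and 6.23 CPM), both known from smooth muscle and stroma, had log2 ratios of 1.17 (1.06 to 1.28) and 1.16 (0.61 to 1.76). MIR584 lies 670 kb away on the opposite strand, and miR-584-5p had 5559 and 51 counts (log2 5.61, 5.21 to 6.04). No listed neighbour was found for either mir-128 hairpin. The miR-143 and miR-145 ratios dropped below 2-fold under 2 and 3 of 9 alternatives, while miR-584-5p and miR-378i stayed above it under all 9.

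Related miRNAs of lipid metabolism outside the members were counted in the same way. For miRNAs described as repressing ABCA1, both arms were counted by name, whichever arm the description concerns. Of these, 19 arms other than the members reached 10 counts: 10 at least 2-fold higher in MDA-MB-468, 2 lower and 7 neither. Over all miRNAs, 35.4% were higher and 28.6% lower. The higher count was 8 to 12 under the other scalings, beside 31.0% to 37.8% of all miRNAs. It was 7 with at least 50 counts, beside 35.1%. The median log2 ratio was 1.06 beside 0.30. Of the higher arms, miR-20a-3p (33 and 3 counts), miR-19b-1-5p and miR-26a-1-3p (24 and 22 counts, not listed in BT474) passed the minimum only through MDA-MB-468. The 2 lower arms passed it in both libraries. Some arms share a hairpin, as those of miR-148a do, and are not independent. Nor are the higher arms of miR-20a, miR-19b and miR-20b, which come from related clusters. The most abundant miRNA of this list, miR-148a-3p, stood at 170240 and 14990 CPM (log2 3.51), whereas miR-26a-5p stood at 5813 and 9999.7 CPM (log2 -0.78). Of miRNAs at loci linked to blood lipids, the non-members were the arms of miR-148a, miR-130b and miR-301b: 2 of 5 arms were higher, both of miR-148a, and none lower. miR-130b-5p stood at 94.7 and 128.2 CPM (log2 -0.44), and miR-130b-3p at 16.1 and 30.6 CPM (log2 -0.93, past 2-fold under 3 of 9 alternatives).

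Of miRNAs of adipocytes and mitochondrial metabolism, 30 arms other than the members divided into 10 at least 2-fold higher in MDA-MB-468, 12 lower and 8 neither, with a median log2 ratio of -0.32. The share higher was near the 35.4% of all miRNAs, and the share lower stood beside 28.6%. An arm high in only MDA-MB-468 or only BT474 can pass the minimum of 10 counts, so these numbers depend on it. With at least 50 counts, 7 arms were higher and 10 lower, beside 35.1% and 24.8% of all miRNAs. Some arms share a hairpin, as those of miR-26b do, and are not independent. Among the 30 arms, miR-103a-3p, which lies in a pantothenate kinase gene, stood at 6257 and 4093 CPM (log2 0.61), and miR-26b-5p at 2808 and 6569 CPM (log2 -1.23). Members were left out of these counts, and the lists overlap: miR-27b-3p, for example, stands in both the ABCA1 list and the adipocyte list.

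The miRNAs closest in ratio to each abundant member were named by the distance of their log2 ratios over the 2 libraries, among miRNAs with a mean CPM within 4-fold. For miR-378a-3p they were miR-200a-5p (log2 1.82) and miR-30b-5p (1.89), of 47 candidates. For miR-128-3p they were miR-28-3p (-0.13) and miR-93-5p (-0.16), of 74 candidates. With 2 libraries a ratio is a single number, so such likeness is easily met.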

How the data were processed

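Small RNAs of 15 to 35 nt were read for 51 cycles, per the labels' protocols, in 1 library per line. The authors deposited raw tag counts over all isoforms of a mature miRNA on a precursor, and normalized scores rounded to whole numbers whose scaling is not described. The submitters' processing notes name Novoalign 2.07.11. A genome build, an annotation release and a counting rule were not given in the labels or file headers. A column headed MAD-MB-468 was taken as the MDA-MB-468 library.

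The 384 rows of predicted candidates were left out, the largest count was kept for a name on several precursors, and CPM used the annotated totals. 10 counts equal 0.874 CPM in the first line and 1.95 CPM in the second. With 1 library per group there is no test: ratios carry exact conditional binomial intervals, shares Clopper-Pearson intervals and CPM Poisson intervals (scipy 1.17.1). Only the ratio intervals and the 2-fold calls were checked, on simulated Poisson counts. Those counts hold counting error alone, so the check does not cover PCR duplicates. TMM scaling used edgeR 4.0.16. The miRNAs named were all member arms, those sharing a seed, neighbours within 1 Mb, the 4 most abundant of each related list and the 2 nearest in ratio. Related miRNAs were matched by name, both arms. Members and lists were chosen with earlier results of these data known. One related list is not reported here.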

Additional observations from a re-analysis of the deposited data

How the results depend on the processing

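The same number of member arms, 4 of 7, was at least 2-fold higher in MDA-MB-468 under all 4 other scalings (total without the 10 most abundant miRNAs, upper quartile, median-of-ratios, edgeR TMM), with the authors' normalized values (where miR-33a-5p was exactly at 2-fold), with predicted candidates in the total, with MDA-MB-468 thinned and with the smallest count on several precursors, and 3 of 5 with at least 50 counts. These scalings moved the median of all log2 ratios by -0.21, -0.21, 0.16 and 0.07. In the same order, the log2 ratio of miR-378a-3p was 1.62, 1.62, 1.99 and 1.90, and 1.91 with the authors' values. That of miR-128-3p was -0.34, -0.34, 0.022 and -0.066, then -0.070 with the authors' values and -0.52 with the smallest count. That of miR-33a-3p ranged from 3.46 to 4.28. Of all miRNAs compared, the share at least 2-fold higher in MDA-MB-468 was 35.4%, and 35.1% (146 of 416) with at least 50 counts. The share higher in BT474 was 28.6% and 24.8%. Under the 4 scalings, in the same order, the share higher in MDA-MB-468 was 31.0%, 31.0%, 37.8% and 36.7%. The share higher in BT474 was then 32.9%, 32.9%, 27.4% and 28.1%. With the authors' values these shares were 32.0% and 28.5%, and with MDA-MB-468 thinned 33.3% and 33.5%. Without a minimum these were 21.7% and 38.3% (433 of 1130), the latter including 1 member arm, miR-33b-5p with 2 counts in each library. Depth limits the low arms: the listed miR-33 values rest on 2 to 155 counts, and miR-33a-5p in BT474 and miR-128-2-5p in both libraries were not listed. No paired analysis was possible because each line has 1 library and the labels carry no replicate numbers.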
